A study of Mus musculus with 6 samples.

Results

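The respiratory chain genes encoded in the nucleus form the set described here. A gene belonged to it where its symbol starts with Nduf (complex I and its assembly factors), Uqcr (complex III) or Atp5 (complex V, the ATP synthase), is Sdha, Sdhb, Sdhc or Sdhd (complex II), or starts with Cox4 to Cox8 followed by a, b or c (complex IV). The rule found 88 genes among the 36699 rows of the authors' deposited table, with 1 pseudogene row set aside, and the rule itself reads symbols only. They were 36 complex I subunits, 4 complex I assembly factors, 4 complex II, 8 complex III, 18 complex IV and 16 complex V genes, and Atp5s and Atp5sl, which are named after the ATP synthase but are no structural subunits of it. Ndufa4 and Ndufa4l2 were counted with complex IV, since the Ndufa4 protein is known as a cytochrome oxidase subunit. No Cox4 gene is among the members, since the symbols Cox4i1 and Cox4i2 do not match the rule. Both were looked for apart from the rule as well, and no row was found for Cox4i1.

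The respiratory chain sits in the inner mitochondrial membrane. Complexes I and II pass electrons from NADH and succinate to coenzyme Q, complex III passes them on to cytochrome c, and complex IV hands them to oxygen. The proton gradient built on the way drives the ATP synthase. A small core of the subunits is encoded by mitochondrial DNA and all others by nuclear genes, so all complexes except complex II are assembled from both. Pluripotent cells are known for relying strongly on glycolysis while keeping this machinery expressed.

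RNA was sequenced from embryoid bodies, the floating aggregates in which mouse embryonic stem cells begin to differentiate, harvested on day 3. All 6 libraries came from A2Lox.cre embryonic stem cells with a doxycycline-inducible Flag-Lef1 transgene, where Lef1 is a transcription factor that binds DNA and acts with beta-catenin downstream of Wnt. The plus_Dox group (libraries 1, 2 and 3) received doxycycline on day 2 and was harvested 24 h later, and the minus_Dox group (libraries 1, 3 and 4) received none. The comparison asked which genes respond to Lef1. Both groups carry the transgene in 1 cell line and differ in the drug as well as in Lef1, and doxycycline acts on mitochondrial translation in many cells. No doxycycline-treated cells without the transgene are among the samples used here, so effects of the drug and of Lef1 cannot be told apart. The stem cells had grown on embryonic fibroblast feeders of FVB mice, which were stripped off before aggregation. Whether the libraries of a group came from separate cultures is not stated, so the spread between them may be technical.

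For each gene, the authors' deposited table gives FPKM (fragments per transcript length and library size) once for each group, a log2 fold of plus_Dox over minus_Dox, and a q-value from the authors' own test. No value of a single library is in it, so whether libraries of the groups overlap cannot be seen, sequencing depth is unknown, and error enters as the standard error (SE) implied by the authors' test statistic. A gene was called at q under 0.05. In these bulk values, a change in the share of cells expressing a gene and a change in RNA per cell cannot be told apart. Lef1 was listed at 51.0 FPKM in plus_Dox and 7.56 FPKM in minus_Dox in the authors' deposited table, a 6.75-fold rise (log2 fold 2.75 with SE 0.19, q listed as 0). Of 8 tested markers of pluripotent and epiblast cells, 2 (Nanog and Dppa5a) were called higher, 1 (Sox2) lower and 5 not. With the median of all genes subtracted, 1 (Nanog) was higher and 2 (Sox2 and Fgf5) lower, and Dppa5a was not called (q = 0.21). The authors' deposited table lists Pou5f1 at 1510.2 FPKM in plus_Dox and 820.2 FPKM in minus_Dox (q = 0.055) and Nanog at 109.7 FPKM in plus_Dox and 28.6 FPKM in minus_Dox (q listed as 0). Sox2 fell, to 30.9 FPKM in plus_Dox against 56.2 FPKM in minus_Dox in the authors' deposited table (q = 2.7e-05). The epiblast marker Fgf5 had 43.8 FPKM in plus_Dox and 54.1 FPKM in minus_Dox in the authors' deposited table (q = 0.24), and was called lower with the median of all genes subtracted, while Otx2 had 100.0 FPKM in plus_Dox and 108 FPKM in minus_Dox (q = 0.86). Feeder fibroblast markers were low: the 14 genes summed to 40.8 FPKM in plus_Dox and 32.7 FPKM in minus_Dox in the authors' deposited table, 6 of them under 1 FPKM and 0 listed at 0 in both groups. Of the 11 tested, 1 (Twist1) was called, higher. With the median of all genes subtracted, Twist1 was not called (q = 0.13) and Pdgfra was called lower (-0.71, q = 0.015). The part of feeder RNA in the results was not tested.

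Most tested respiratory chain genes were called higher in plus_Dox as deposited, and few were once transcript GC content and length were taken into account. Of the 88 genes the authors tested 85, and 51 of these (60.0%) rose, 0 fell and 34 were not called. Among all 18114 tested rows, 8.98% were called higher, 3.22% lower and 12.2% in either direction in the authors' deposited table. At an unadjusted p under 0.05 in the authors' test (Cuffdiff, by the layout of the table and the submitters' processing notes), 61 members were higher and 0 lower, against 17.2% and 6.11% of all tested rows. The estimate was above 0 for 82 of the 85 and below 0 for Ndufs1, Ndufa4l2 and Atp5s, none of them called. Most rises were moderate: the median log2 fold of the 85 was 0.51 (1.43-fold), and 5 of the 51 reached 2-fold, namely Ndufa11, Ndufa13, Ndufb7, Uqcr11 and Uqcrq. The tested genes as a whole also lay above 0: the 12367 tested rows with at least 1 FPKM had a median log2 fold of 0.20, with 65.9% of them above 0. Relative to that shift the median of the members was 0.31 (24 called higher and 0 lower, against 3.4% and 5.99% of all tested rows). At an unadjusted p under 0.05 relative to that shift, 0 members were lower, against 11.2% of all tested rows. With a trend on transcript GC content and length removed, which is described further on, the median was 0.10 and 5 of 82 members were called. Other abundant short transcripts had a median log2 fold of 0.57 as deposited, against 0.61 for the abundant short members.

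Most members were abundant transcripts. In at least 1 group, 83 of the 88 reached 1 FPKM, and the median over the 85 tested members was 188 FPKM in plus_Dox and 126 FPKM in minus_Dox in the authors' deposited table. The highest level was that of Cox7c, a small complex IV subunit, at 973 FPKM in plus_Dox and 701 FPKM in minus_Dox in the authors' deposited table. The median SE of a member's log2 fold was 0.18, against 0.24 over all tested rows with at least 1 FPKM. Wide errors stood on a few members, among them Sdha (SE 0.67), Ndufa3 (0.45), Atp5o (0.39) and Cox7b (0.38), and none of these 4 was called.

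**Figure D1:**
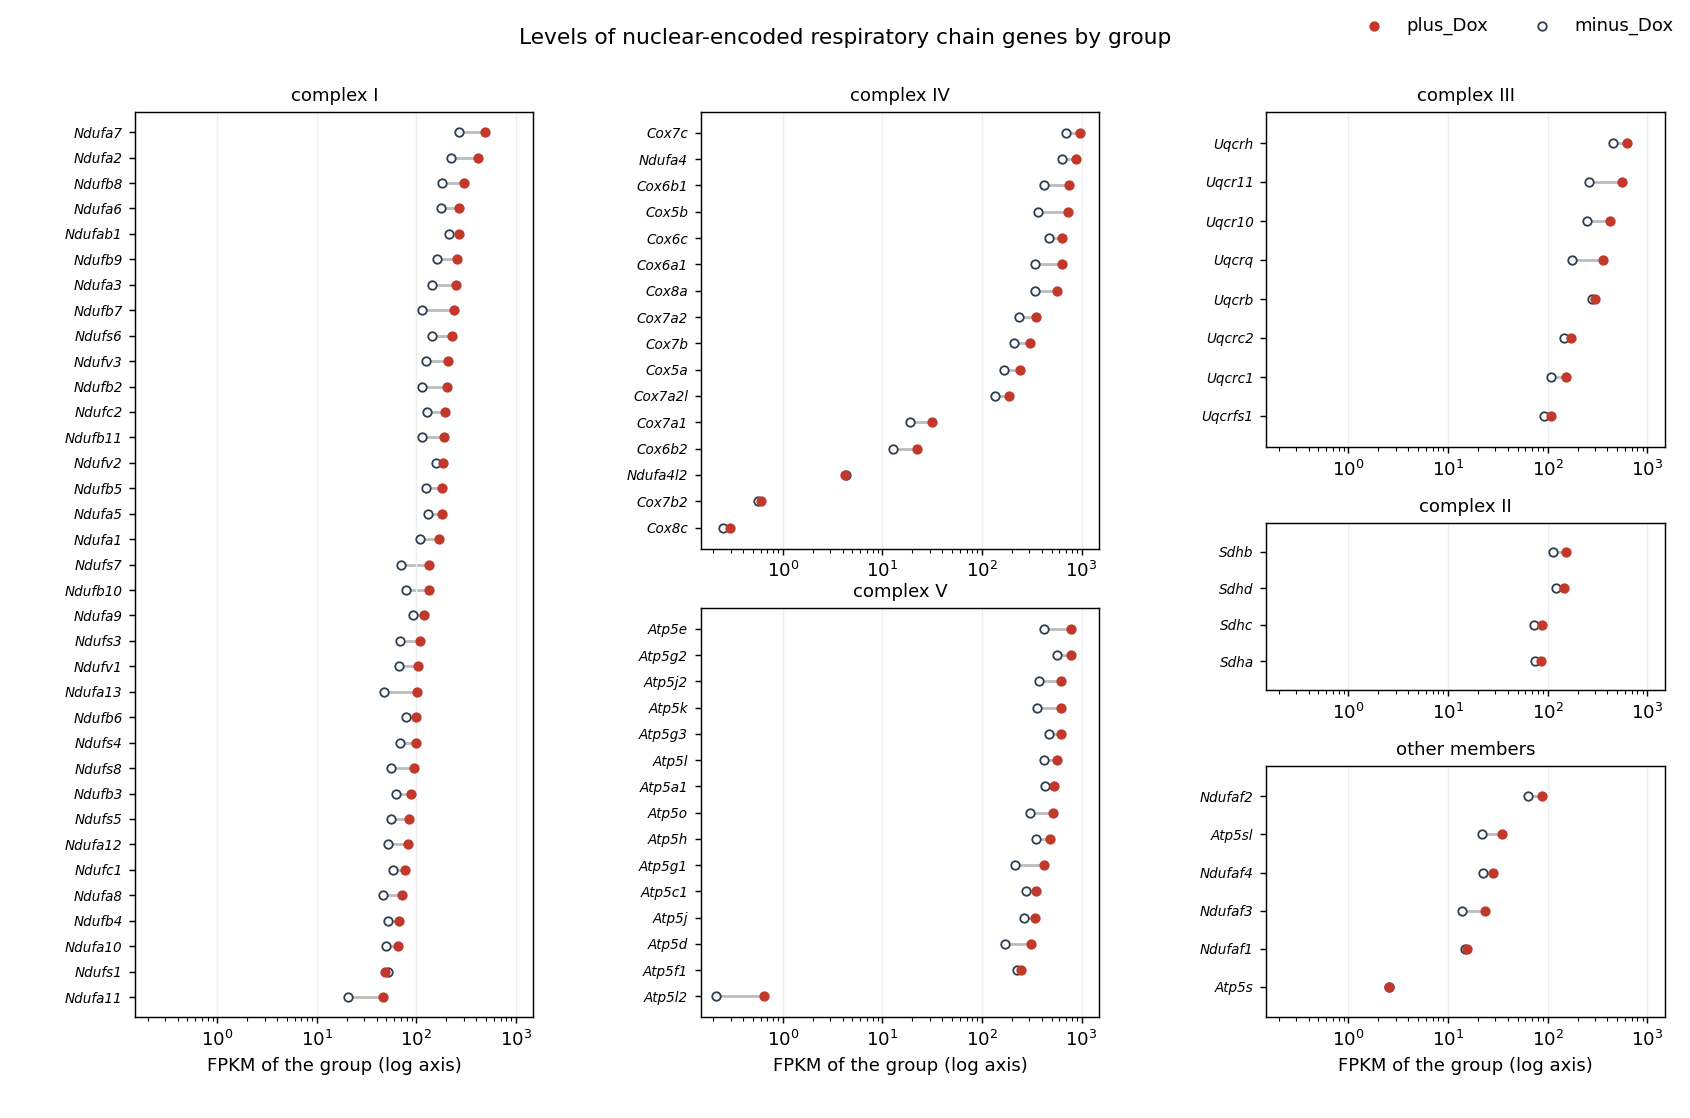
FPKM of the tested respiratory chain genes (1 not drawn) on a log axis, 1 row a gene, with plus_Dox as filled and minus_Dox as open circles joined by a line, in panels for complexes I, IV, V, III, II and the 6 other members (assembly factors, Atp5s and Atp5sl). Most subunits lie between 50 and 1000 FPKM and the plus_Dox circle is to the right for every gene drawn except Ndufs1, Ndufa4l2 and Atp5s, while the tissue-restricted isoforms Cox7b2 and Cox8c and the pseudogene Atp5l2 lie under 1 FPKM.

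**Figure D2:**
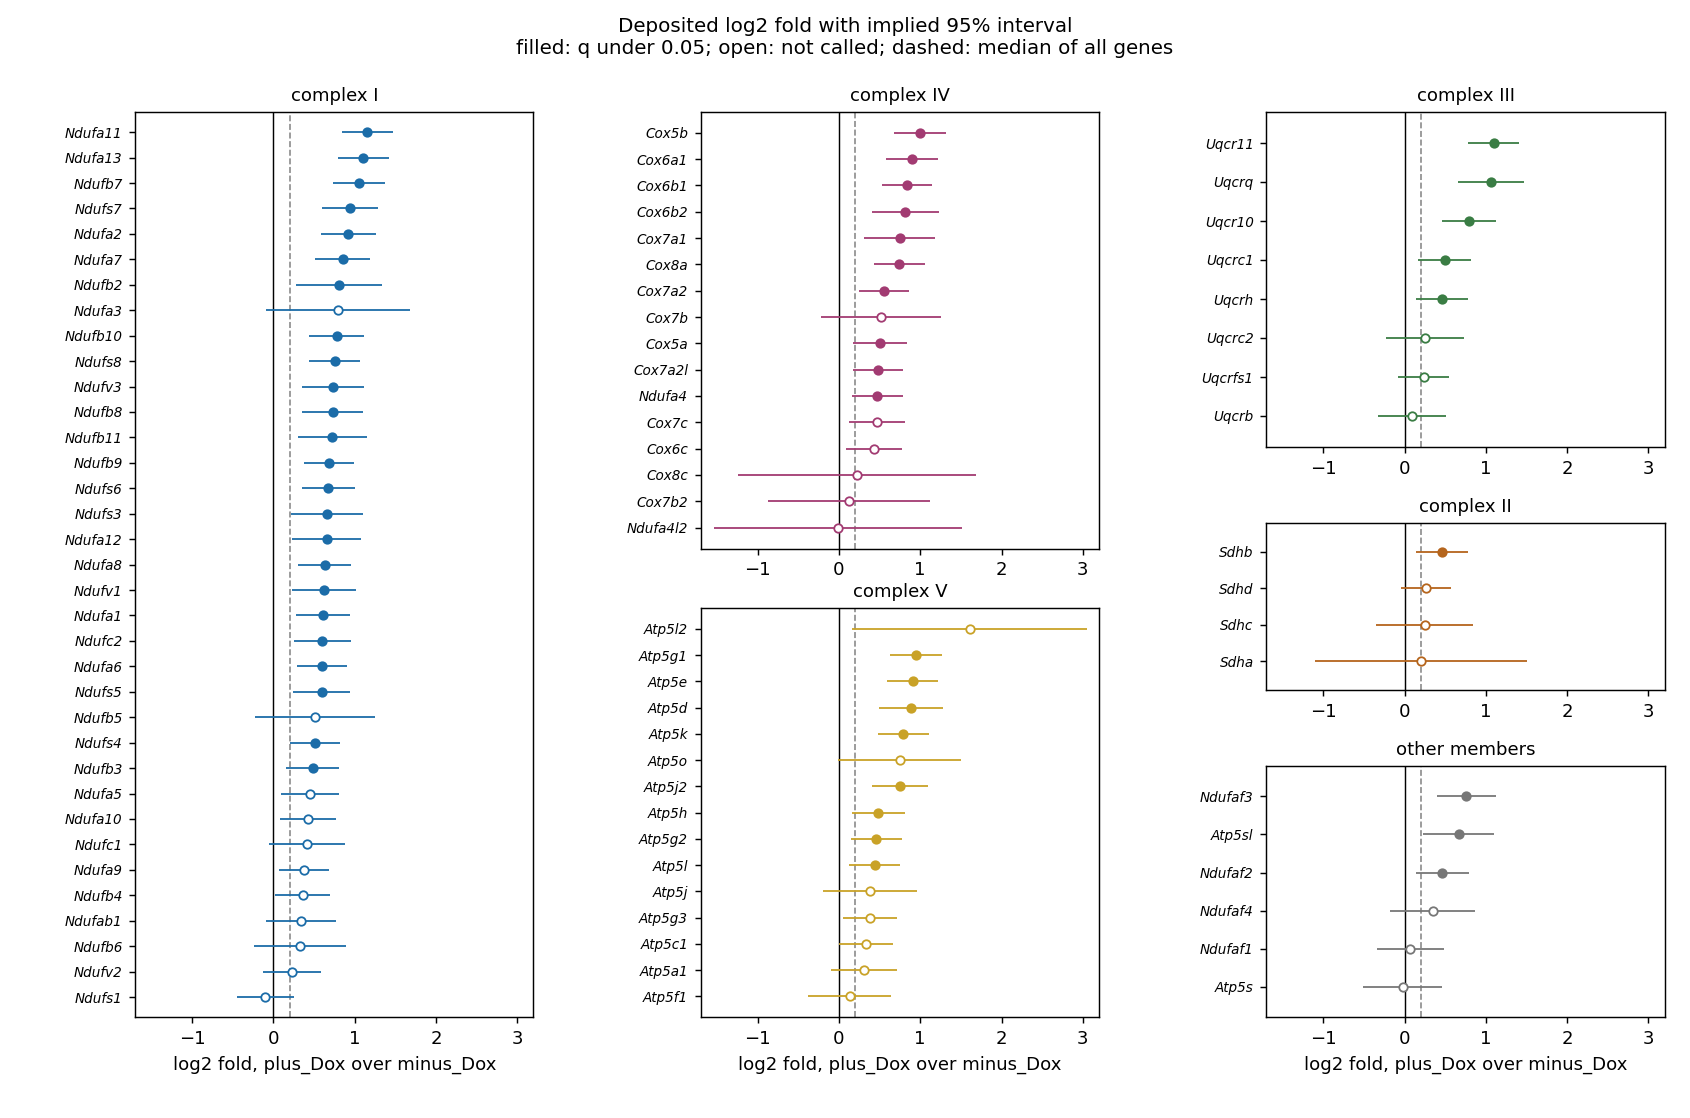
Log2 fold of plus_Dox over minus_Dox from the authors' deposited table for the same genes, with the 95% interval implied by the authors' test statistic (bars), filled where q was under 0.05. The solid line is at 0 and the dashed line at 0.20, the median of all tested genes with at least 1 FPKM. The filled points lie to the right of both lines, from 0.44 for Atp5l to 1.16 for Ndufa11. After the GC and length trend described in the text is removed, 12 of the 49 called members with known transcripts lie under 0.

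Many respiratory chain promoters are known to carry sites for NRF1, for ETS factors such as GABP, and for YY1, so the start regions of the genes that rose were read for these motifs. RefSeq windows of 300 bases (GRCm38.p6, 250 before the start site to 50 after it) were matched for 74 of the 88 genes. The shown promoters belong, in each complex, to the gene with the largest rise that holds a match, and capitals mark the matches to NRF1 (GCGC, any base, then TGCGC) or ETS (CCGGAAG), read on both strands, so that a match on the other strand appears as its reverse complement. None of the marked matches overlap.
Ndufa11 (complex I, chr17:56717512-56717811, plus strand, NRF1 match from -60): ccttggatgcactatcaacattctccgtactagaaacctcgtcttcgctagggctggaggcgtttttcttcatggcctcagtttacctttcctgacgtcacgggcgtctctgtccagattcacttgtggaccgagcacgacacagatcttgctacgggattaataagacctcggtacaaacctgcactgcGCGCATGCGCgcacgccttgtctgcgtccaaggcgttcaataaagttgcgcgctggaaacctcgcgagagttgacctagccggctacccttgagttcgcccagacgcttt
Sdhb (complex II, chr4:140961021-140961320, plus strand, ETS match from 7): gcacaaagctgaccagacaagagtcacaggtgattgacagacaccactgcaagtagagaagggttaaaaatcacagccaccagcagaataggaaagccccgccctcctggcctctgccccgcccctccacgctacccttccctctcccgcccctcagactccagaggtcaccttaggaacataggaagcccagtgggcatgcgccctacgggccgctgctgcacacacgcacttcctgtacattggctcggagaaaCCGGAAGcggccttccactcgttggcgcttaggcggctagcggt
Uqcr11 (complex III, chr10:80406772-80407071, minus strand, ETS match from -66): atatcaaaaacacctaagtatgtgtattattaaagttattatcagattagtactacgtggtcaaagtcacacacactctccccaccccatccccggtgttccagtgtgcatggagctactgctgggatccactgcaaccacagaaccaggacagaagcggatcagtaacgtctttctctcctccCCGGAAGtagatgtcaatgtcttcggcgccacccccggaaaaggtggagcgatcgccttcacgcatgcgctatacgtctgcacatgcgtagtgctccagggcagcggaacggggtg
Cox6a1 (complex IV, chr5:115348909-115349208, minus strand, NRF1 matches from -162 and -117, ETS match from -16): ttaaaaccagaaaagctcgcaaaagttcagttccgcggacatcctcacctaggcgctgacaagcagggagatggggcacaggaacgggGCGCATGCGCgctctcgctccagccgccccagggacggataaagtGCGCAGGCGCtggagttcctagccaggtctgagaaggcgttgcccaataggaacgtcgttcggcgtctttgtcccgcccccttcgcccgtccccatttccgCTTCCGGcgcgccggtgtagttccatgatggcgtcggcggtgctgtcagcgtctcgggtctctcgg
Atp5e (complex V, chr2:174464052-174464351, minus strand, ETS match from -102): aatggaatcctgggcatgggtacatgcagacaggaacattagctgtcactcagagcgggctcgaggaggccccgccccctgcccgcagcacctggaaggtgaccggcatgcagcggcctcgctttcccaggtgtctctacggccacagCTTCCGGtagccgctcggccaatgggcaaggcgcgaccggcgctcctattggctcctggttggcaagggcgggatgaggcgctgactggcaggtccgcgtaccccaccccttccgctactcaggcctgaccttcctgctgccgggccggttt
Positions give the first base of a match relative to the start site.

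The NRF1 motif was in 18 of the 74 member windows (24.3%), against 5.19% of the windows of all 27025 genes in the RefSeq table and 11.8% of those of 8811 tested genes with at least 1 FPKM. ETS matches were in 17 members (23%), against 9.93% of all and 20.9% of the tested genes. The YY1 motif (AAGATGGCG) was in 8 members (10.8%), against 1.64% of all and 3.79% of the tested genes, and 37 members (50%) held none of the motifs. Among the 48 matched members that rose, NRF1 matches were in 20.8%, ETS in 27.1% and YY1 in 10.4%, and among the 24 tested but not called they were in 33.3%, 16.7% and 12.5%. By complex, NRF1 matches were in 7 of 32 windows of complex I, 6 of 14 of complex V and 1 of 14 of complex IV. These are counts of letters in a window, given without a test.

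Complex I, the NADH dehydrogenase and largest of the complexes, had 24 of its 36 genes higher (66.7%) and 0 lower, with a median log2 fold of 0.63 in the authors' deposited table and 0.14, with 1 call, after the GC and length trend was removed. The 7 core subunits, among them those that carry the flavin and the iron-sulfur clusters, stood at a median of 109 FPKM in plus_Dox and 68.7 FPKM in minus_Dox, and the 29 accessory subunits, which surround the core, at 179 FPKM in plus_Dox and 114 FPKM in minus_Dox in the authors' deposited table. The share that rose was 4 of 7 among core and 20 of 29 among accessory subunits, and the median log2 fold was 0.63 in both classes. The largest rise was in Ndufa11, an accessory subunit of the membrane arm (chromosome 17, 56857185 to 56863671 in mm9, the build in the submitters' processing notes), with 46.1 FPKM in plus_Dox and 20.7 FPKM in minus_Dox in the authors' deposited table, 2.23-fold with a 95% interval of 1.80 to 2.76 (log2 fold 1.16 with SE 0.16, q = 1.3e-10). Ndufa13, an accessory subunit also known as Grim19 (chromosome 8, 72418087 to 72427415), had 102 FPKM in plus_Dox and 47.3 FPKM in minus_Dox in the authors' deposited table (log2 fold 1.11 with SE 0.16, q = 2.0e-09). Ndufb7, an accessory subunit on the intermembrane side (chromosome 8, 86090570 to 86095525), had 239 FPKM in plus_Dox and 115 FPKM in minus_Dox in the authors' deposited table (log2 fold 1.06 with SE 0.16, q = 1.7e-08). These 3 were the complex I genes that reached 2-fold. With the GC and length trend removed, Ndufa11 (0.43, q = 0.18), Ndufa13 (0.42, q = 0.22) and Ndufb7 (0.21, q = 0.95) were not called.

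Among the core subunits the largest estimate was that of Ndufs7, which holds the last iron-sulfur cluster before coenzyme Q, at 135 FPKM in plus_Dox and 70.3 FPKM in minus_Dox in the authors' deposited table (log2 fold 0.94 with SE 0.17, q = 7.2e-06). Ndufs8, another iron-sulfur subunit, had 93.7 FPKM in plus_Dox and 55.5 FPKM in minus_Dox in the authors' deposited table (log2 fold 0.75 with SE 0.16, q = 1.6e-04). Ndufv1, which binds the flavin and NADH, had 104 FPKM in plus_Dox and 67.2 FPKM in minus_Dox (log2 fold 0.63 with SE 0.20, q = 0.022), and Ndufs3 had 109 FPKM in plus_Dox and 68.7 FPKM in minus_Dox (log2 fold 0.66 with SE 0.22, q = 0.031), both from the authors' deposited table. Ndufv2, which also carries an iron-sulfur cluster, was not called at 186 FPKM in plus_Dox and 159 FPKM in minus_Dox in the authors' deposited table (q = 0.52). Ndufs1, the largest core subunit, had 48.6 FPKM in plus_Dox and 52.0 FPKM in minus_Dox and a log2 fold below 0 in the authors' deposited table (log2 fold -0.10 with SE 0.18, q = 0.87). With the GC and length trend removed it lay at -0.11, where 7 of 34 complex I genes were below 0, down to -0.15. On that scale 0 of the 7 core subunits were called, Ndufs7 (0.21) among them. The Ndufs1 row covers 218 kb, longer than the other complex I rows, and how reads of neighbouring transcripts were divided is not known.

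Of the most abundant complex I genes, Ndufa7 had 485 FPKM in plus_Dox and 269 FPKM in minus_Dox in the authors' deposited table (log2 fold 0.85 with SE 0.17, q = 5.8e-05) and Ndufa2 had 419.6 FPKM in plus_Dox and 222 FPKM in minus_Dox (log2 fold 0.92 with SE 0.17, q = 9.4e-06). Both encode accessory subunits, and neither was called after trend removal (0.08 for Ndufa7 and 0.31 for Ndufa2). Ndufs4, an accessory subunit whose loss causes Leigh syndrome in humans, had 98.7 FPKM in plus_Dox and 69.2 FPKM in minus_Dox in the authors' deposited table (log2 fold 0.51 with SE 0.16, q = 0.016). The 20 accessory genes that rose spanned 0.49 (Ndufb3) to 1.16 on the log2 scale, and the 9 not called spanned 0.33 (Ndufb6) to 0.80 (Ndufa3, SE 0.45) in the authors' deposited table. The called and uncalled ranges overlap. Ndufab1, the mitochondrial acyl carrier protein that is also a subunit, was among the uncalled at 267 FPKM in plus_Dox and 211 FPKM in minus_Dox in the authors' deposited table (q = 0.39). Ndufb2 and Ndufb8 are listed in rows that join them with other genes (Adck2 for Ndufb2, Gm20538 and Sec31b for Ndufb8), so their values, both called higher, are those of the joined rows.

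The assembly factors of complex I, which build the enzyme without staying in it, had median levels of 26.0 FPKM in plus_Dox and 18.6 FPKM in minus_Dox in the authors' deposited table. The medians of the complex I subunits were 139 FPKM in plus_Dox and 100.02 FPKM in minus_Dox there. Ndufaf3 rose, with 23.5 FPKM in plus_Dox and 13.9 FPKM in minus_Dox in the authors' deposited table (log2 fold 0.76 with SE 0.18, q = 0.0011), and Ndufaf2 rose, with 87.2 FPKM in plus_Dox and 63.3 FPKM in minus_Dox (log2 fold 0.46 with SE 0.17, q = 0.046). Neither was called after trend removal (0.19 for Ndufaf3 and 0.05 for Ndufaf2). Ndufaf4 was not called at 28.5 FPKM in plus_Dox and 22.4 FPKM in minus_Dox in the authors' deposited table (q = 0.5), nor was Ndufaf1 at 15.7 FPKM in plus_Dox and 14.9 FPKM in minus_Dox (q = 0.95).

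Complex II, succinate dehydrogenase, is the only complex with all subunits encoded in the nucleus and is also an enzyme of the citric acid cycle. It had 1 of 4 genes called, higher, with a median log2 fold of 0.26 in the authors' deposited table, which was -0.01 after the GC and length trend was removed. Sdhb, the iron-sulfur subunit (chromosome 4, 140517118 to 140535108), had 155 FPKM in plus_Dox and 113 FPKM in minus_Dox in the authors' deposited table (log2 fold 0.46 with SE 0.16, q = 0.043), and its value after trend removal was -0.13. Sdhd, a membrane anchor, had 146 FPKM in plus_Dox and 121 FPKM in minus_Dox in the authors' deposited table (log2 fold 0.26 with SE 0.16, q = 0.33). Sdhc, the other anchor, had 87.0 FPKM in plus_Dox and 73.2 FPKM in minus_Dox (log2 fold 0.25 with SE 0.30, q = 0.75) and the flavoprotein Sdha 85.3 FPKM in plus_Dox and 74.3 FPKM in minus_Dox (log2 fold 0.20 with SE 0.67, q = 0.96) in the authors' deposited table. The intervals of Sdhc and Sdha, 0.79 to 1.80 and 0.46 to 2.84 in fold, are wide enough to hold both no difference and a rise like that of Sdhb.

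Complex III, the cytochrome bc1 complex, had 5 of 8 genes higher and 0 lower, with a median log2 fold of 0.48 in the authors' deposited table and -0.04 after trend removal. Small supernumerary subunits led. Uqcr11 (chromosome 10, 79865742 to 79869575) had 563 FPKM in plus_Dox and 263 FPKM in minus_Dox in the authors' deposited table, 2.14-fold with a 95% interval of 1.72 to 2.67 (log2 fold 1.10 with SE 0.16, q = 2.2e-09). Uqcrq (chromosome 11, 53241424 to 53244333) had 365 FPKM in plus_Dox and 174 FPKM in minus_Dox in the authors' deposited table (log2 fold 1.06 with SE 0.21, q = 1.9e-05). Uqcrq was called after trend removal (0.73, q = 0.022) and Uqcr11 was not (0.20, q = 0.97). Uqcr10, another small subunit, had 427 FPKM in plus_Dox and 246 FPKM in minus_Dox in the authors' deposited table (log2 fold 0.79 with SE 0.17, q = 1.2e-04), and -0.02 after trend removal. The core proteins and the iron-sulfur protein had smaller estimates. Uqcrc1, a core protein on the matrix side, had 153 FPKM in plus_Dox and 109 FPKM in minus_Dox in the authors' deposited table (log2 fold 0.49 with SE 0.17, q = 0.03, -0.10 after trend removal), and its partner Uqcrc2 had 172 FPKM in plus_Dox and 145 FPKM in minus_Dox (q = 0.64). The Rieske iron-sulfur protein Uqcrfs1 was listed at 108 FPKM in plus_Dox and 91.7 FPKM in minus_Dox (q = 0.41) in the authors' deposited table. Uqcrh, the hinge protein and the most abundant of the 8, had 626 FPKM in plus_Dox and 455 FPKM in minus_Dox in the authors' deposited table (log2 fold 0.46 with SE 0.16, q = 0.045, -0.09 after trend removal).

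Uqcrb, another small subunit, had 300.3 FPKM in plus_Dox and 282 FPKM in minus_Dox in the authors' deposited table (log2 fold 0.09 with SE 0.21, q = 0.92). The Uqcrb row covers 97.8 kb, and how reads of neighbouring transcripts were divided is not known. The log2 folds of Uqcrq and Uqcrb differed by 0.97 (SE 0.30, 95% interval 0.39 to 1.55, treating the errors as independent). This pair, like the pairs of isoforms, was chosen after the values were seen, and no p-value is given for it.

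Complex IV, cytochrome c oxidase, had 10 of 16 tested genes higher (62.5%) and 0 lower, with a median log2 fold of 0.51 in the authors' deposited table and 0.05, with 2 calls, after trend removal. Cox5b, a zinc-binding subunit facing the matrix (chromosome 1, 36748332 to 36750230), had the largest estimate, with 725 FPKM in plus_Dox and 364 FPKM in minus_Dox in the authors' deposited table, 1.99-fold with a 95% interval of 1.59 to 2.49 (log2 fold 0.99 with SE 0.16, q = 2.8e-07). Cox6a1, the broadly expressed form of subunit VIa, had 630.3 FPKM in plus_Dox and 338 FPKM in minus_Dox in the authors' deposited table (log2 fold 0.90 with SE 0.16, q = 3.1e-06). Cox6b1, which faces the intermembrane space, had 755 FPKM in plus_Dox and 422 FPKM in minus_Dox in the authors' deposited table (log2 fold 0.84 with SE 0.16, q = 1.1e-05). Each of these is among the more abundant members. With the trend removed, Cox5b stayed called (0.58), while Cox6a1 (0.05) and Cox6b1 (0.27) did not. Ndufa4 had 886 FPKM in plus_Dox and 639 FPKM in minus_Dox in the authors' deposited table (log2 fold 0.47 with SE 0.16, q = 0.031), and Cox7c, slightly higher in level, missed the threshold with an estimate of the same size (log2 fold 0.47 with SE 0.18, q = 0.055). Cox8a, Cox7a2, Cox5a and the supercomplex factor Cox7a2l rose with log2 folds of 0.74, 0.56, 0.51 and 0.48 in the authors' deposited table, of which Cox8a (-0.11) and Cox7a2 (-0.03) lay below 0 after trend removal. Cox6c (q = 0.087) and Cox7b (q = 0.47) were not called, and the Cox6c row covers 567 kb.

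Isoforms known for restricted tissues ranged from moderate levels to almost none. Cox6b2, known as the testis form of subunit VIb, had 22.5 FPKM in plus_Dox and 12.8 FPKM in minus_Dox in the authors' deposited table (log2 fold 0.82 with SE 0.21, q = 0.0025). Cox7a1, the heart and muscle form of subunit VIIa, had 31.6 FPKM in plus_Dox and 18.9 FPKM in minus_Dox in the authors' deposited table (log2 fold 0.75 with SE 0.22, q = 0.011). Both rose, as did their broadly expressed counterparts. None of them was called after trend removal: Cox6b2 lay at 0.05, Cox6b1 at 0.27, Cox7a1 at -0.04 and Cox7a2 at -0.03. As deposited, Cox6b2 differed from Cox6b1 by -0.02 on the log2 scale (95% interval -0.54 to 0.49) and Cox7a1 from Cox7a2 by 0.19 (-0.34 to 0.72). Ndufa4l2, known as hypoxia-inducible, was listed at 4.26 FPKM in plus_Dox and 4.29 FPKM in minus_Dox in the authors' deposited table, with an SE of 0.78. Cox7b2 (0.608 and 0.56 FPKM in plus_Dox and minus_Dox) and Cox8c (0.293 and 0.251 FPKM) were under 1 FPKM in the authors' deposited table. Cox6a2 (0.0376 and 0.00953 FPKM) and Cox8b (0.0105 FPKM in plus_Dox and listed at 0 in minus_Dox) were marked as not tested in the authors' deposited table. The heart and muscle markers were mostly low as well, with a sum over 8 rows of 21.8 FPKM in plus_Dox and 16.1 FPKM in minus_Dox in the authors' deposited table. The highest were Actc1 (11.1 and 7.68 FPKM in plus_Dox and minus_Dox) and Myl7 (8.53 and 6.37 FPKM), and 5 of the 8 were under 1 FPKM. Of 7 tested, 0 were called (1 higher and 0 lower at an unadjusted p under 0.05). Male germ cell markers summed to 7.10 FPKM in plus_Dox and 7.58 FPKM in minus_Dox over 6 rows of the authors' deposited table, with 4 under 1 FPKM. Of 5 tested, 1 (Dazl) was called, lower, at 0.280 FPKM in plus_Dox and 0.577 FPKM in minus_Dox. Lists this short hold few calls at the shares of all tested rows, 8.98% higher and 3.22% lower. The part of muscle or germ cells in the levels of Cox6b2 and Cox7a1 was not tested.

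Complex V, the ATP synthase, had 8 of 15 tested genes higher (53.3%) and 0 lower, with a median log2 fold of 0.49 in the authors' deposited table. That median became 0.0016 once the trend was removed, with 7 genes above and 7 below 0 and 1 called. Its genes were the most abundant, with medians of 516 FPKM in plus_Dox and 346 FPKM in minus_Dox. In the central stalk, the epsilon subunit gene Atp5e had 788 FPKM in plus_Dox and 420.2 FPKM in minus_Dox in the authors' deposited table (log2 fold 0.91 with SE 0.16, q = 2.2e-06). The delta subunit gene Atp5d had 313 FPKM in plus_Dox and 169.6 FPKM in minus_Dox in the authors' deposited table (log2 fold 0.89 with SE 0.20, q = 4.2e-04), while Atp5c1, the gamma subunit, had 347 FPKM in plus_Dox and 275 FPKM in minus_Dox (q = 0.21). Among the small membrane subunits, Atp5k had 616 FPKM in plus_Dox and 356 FPKM in minus_Dox in the authors' deposited table (log2 fold 0.79 with SE 0.16, q = 6.1e-05) and Atp5j2 had 627 FPKM in plus_Dox and 374 FPKM in minus_Dox (log2 fold 0.75 with SE 0.17, q = 6.9e-04). Atp5l rose with a log2 fold of 0.44 in the authors' deposited table (q = 0.048, -0.03 after trend removal), the smallest of the 51 rises. Neither Atp5l nor Atp5e (0.12), Atp5d (0.23), Atp5k (0.02) or Atp5j2 (0.32) was called after trend removal.

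Among the genes of the catalytic head and the peripheral stalk, only Atp5h was called, and Atp5b had no test. Atp5a1, the alpha subunit, had 534 FPKM in plus_Dox and 431 FPKM in minus_Dox in the authors' deposited table (log2 fold 0.31 with SE 0.21, q = 0.4). For Atp5b, the catalytic beta subunit, the authors' test gave no result: its row is marked as too high in depth, with a listed 0 in plus_Dox and 885 FPKM in minus_Dox in the authors' deposited table, and such a 0 is not absence (98 rows carry that mark). In the stalk, Atp5h rose with 484 FPKM in plus_Dox and 346 FPKM in minus_Dox in the authors' deposited table (log2 fold 0.49 with SE 0.17, q = 0.032, -0.02 after trend removal). Atp5f1 was not called at 245 FPKM in plus_Dox and 223 FPKM in minus_Dox (q = 0.89), nor Atp5j at 344 FPKM in plus_Dox and 264 FPKM in minus_Dox (q = 0.49) in the authors' deposited table. Atp5o, the oligomycin-sensitivity subunit, had 516 FPKM in plus_Dox and 307 FPKM in minus_Dox in a row of the authors' deposited table joined with Donson that covers 315 kb (log2 fold 0.75 with SE 0.39, q = 0.22).

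The c subunit, which forms the rotating ring, is encoded by Atp5g1, Atp5g2 and Atp5g3, whose mature proteins are the same. Atp5g1 (chromosome 11, 95930166 to 95936984) rose most, with 415 FPKM in plus_Dox and 215 FPKM in minus_Dox in the authors' deposited table, 1.93-fold with a 95% interval of 1.55 to 2.41 (log2 fold 0.95 with SE 0.16, q = 6.7e-07). Atp5g2 had 779 FPKM in plus_Dox and 567 FPKM in minus_Dox in the authors' deposited table (log2 fold 0.46 with SE 0.16, q = 0.04, -0.29 after trend removal), and Atp5g3 had 616 FPKM in plus_Dox and 472 FPKM in minus_Dox (log2 fold 0.38 with SE 0.17, q = 0.14). Summed, the c-subunit genes came to 1810 FPKM in plus_Dox and 1254 FPKM in minus_Dox in the authors' deposited table, of which Atp5g1 made up 23% in plus_Dox and 17.1% in minus_Dox. The log2 fold of Atp5g1 exceeded that of Atp5g2 by 0.49 (95% interval 0.04 to 0.94) and that of Atp5g3 by 0.57 (0.11 to 1.03), while Atp5g2 and Atp5g3 differed by 0.08 (-0.39 to 0.54). Reads shared between these similar genes may have been divided in ways the table does not show.

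The remaining Atp5 symbols were low or off the enzyme. Atp5sl rose with 34.5 FPKM in plus_Dox and 21.7 FPKM in minus_Dox in the authors' deposited table (log2 fold 0.67 with SE 0.22, q = 0.031), and Atp5s was listed at 2.54 FPKM in plus_Dox and 2.58 FPKM in minus_Dox (q = 1.00). Atp5l2, a pseudogene in RefSeq, had the largest estimate of all members at 0.649 FPKM in plus_Dox and 0.213 FPKM in minus_Dox in the authors' deposited table (log2 fold 1.61 with SE 0.74, q = 0.15), with both levels under 1 FPKM and no call.

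The members differ from other genes in what their transcripts look like. Their median transcript length was 875 nt, against 2906.5 nt over all tested genes with at least 1 FPKM, of which 10.4% have a transcript under 1000 nt, and their median GC content was 50.5% against 50.3%. Among members with at least 10 FPKM, 34 of 43 with a transcript under 1000 nt rose (79.1%, median log2 fold 0.63), against 15 of 34 longer ones (44.1%, 0.44). With a GC content of 50% or more, 35 of 44 rose (79.5%, median 0.74), against 14 of 33 below 50% GC (42.4%, 0.44). The called members had a median of 731 nt and 53.8% GC, and those not called at 10 FPKM or more 1404 nt and 48.5%. Across 77 members the log2 fold had a Spearman correlation of 0.60 with GC content and -0.41 with log2 length, and across 11591 tested genes 0.65 and -0.47. These correlations run across genes of the same libraries, which are not independent replicates, and are given without a p-value.

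**Figure D3:**
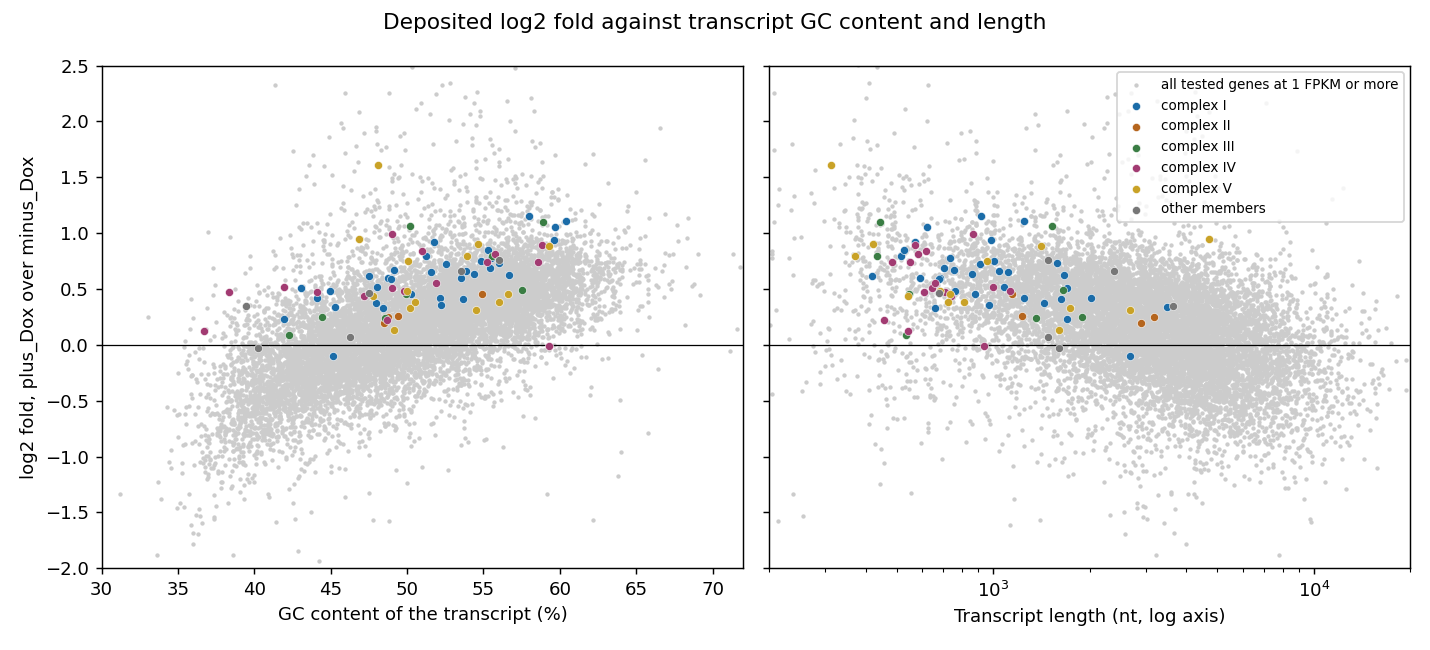
Log2 fold of plus_Dox over minus_Dox from the authors' deposited table against transcript GC content (left) and transcript length on a log axis (right), for all tested genes with at least 1 FPKM (grey) and the respiratory chain genes coloured by complex, with a few grey points beyond the axes not drawn. Members follow the grey cloud, which climbs with GC content (Spearman correlation 0.65) and descends with length (-0.47), and most lie at its short end, around 875 nt.

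Rises were also frequent among other abundant and short transcripts, by comparisons added after the data were seen. Of 2058 tested rows with at least 50 FPKM, 29.1% were called higher, and their median log2 fold was 0.38; of 73 members at that level, 46 (63.0%) were. Of the 361 such rows with a transcript under 1000 nt, 55.7% were called higher, and without the members 53% of 321. There the members stood at 31 of 40 (77.5%), with a median log2 fold of 0.61 against 0.57 in the others. Short abundant members and others had median GC contents of 51.1% and 53.0% and median lengths of 668.5 nt and 759 nt.

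A trend of the log2 fold on GC content and length was then fitted over all genes and removed, which left 1.24% of 16654 rows called higher and 0.949% lower. Of 82 members with both properties, 5 were then called higher and 0 lower, and 8 higher and 0 lower at an unadjusted p under 0.05, against 4.16% and 4.64% of all rows. The median of the members was 0.10, with 55 above 0 and 27 below. Of the 49 members with both properties that rose as deposited, 12 were below 0, from -0.29 for Atp5g2 to -0.02 for Uqcr10, and 4 were among the 5 calls. By complex the medians were 0.14 for complex I, -0.01 for II, -0.04 for III, 0.05 for IV and 0.0016 for V. Across 77 members with at least 10 FPKM, the values after trend removal had a Spearman correlation of -0.20 with GC content. With log2 length it was 0.21, and both signs are opposite to those of the deposited log2 folds. The fit over all genes thus did not remove these relations among the members. The median of the set was 0.51 as deposited, 0.31 relative to all genes and 0.10 with the GC and length trend removed. Whether that trend arose in the cells or in the libraries was not tested.

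The 5 genes called after trend removal were Atp5g1 (1.01, q = 1.7e-07), Uqcrq (0.73, q = 0.022), Cox7c (0.63, q = 0.02), Cox5b (0.58, q = 0.026) and Ndufs4 (0.52, q = 0.046). The properties were those of the longest annotated transcript, which for Atp5g1 has 4715 nt where the one of median length has 691 nt. With transcripts of median length, an alternative added after the data were seen, Ndufs4 (0.59, q = 0.010) and Uqcrq (0.67, q = 0.040) were called and Ndufaf4 joined them (0.86, q = 0.046). Cox5b (0.33, q = 0.49), Atp5g1 (0.35, q = 0.41) and Cox7c (0.17, q = 1.00) were then not called. Of Ndufs4 and Uqcrq, called with either transcript choice, Uqcrq was also called with the median of all genes subtracted (0.86, q = 9.0e-04) and with the length trend alone removed (0.68, q = 0.024). Ndufs4 was called in neither (0.31, q = 0.25 with the median subtracted and 0.15, q = 0.79 with the length trend alone).

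**Figure D4:**
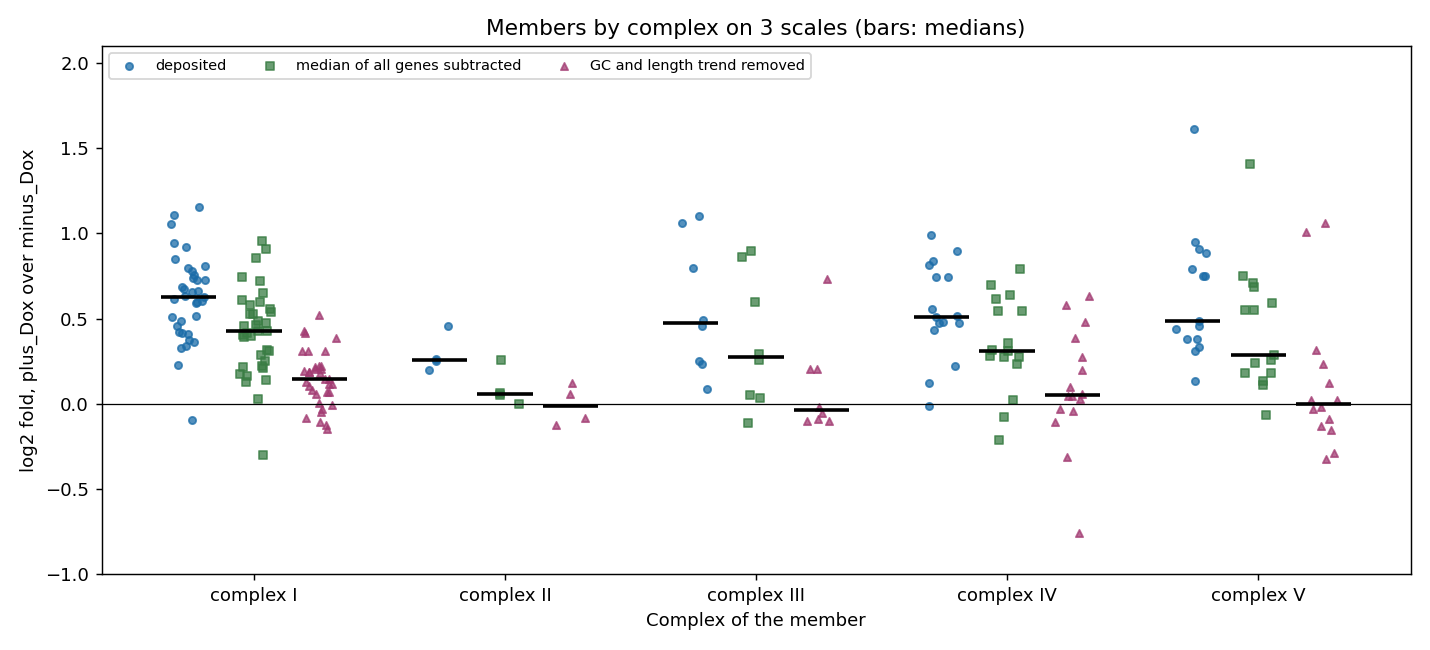
Log2 fold of plus_Dox over minus_Dox of the tested members by complex, as deposited (circles), with the median of all genes subtracted (squares) and with the GC and length trend removed (triangles), with black bars at the medians. The medians as deposited run from 0.26 (complex II) to 0.63 (complex I), and after trend removal from -0.04 (complex III) to 0.14 (complex I), with complexes II and III under 0.

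Genes that build, feed or regulate the chain were read from lists outside the rule, in the authors' deposited table. Among all tested rows, 8.98% were called higher and 3.22% lower there (17.2% and 6.11% at an unadjusted p under 0.05). Of 42 tested assembly factors, 8 rose and 0 fell (15 and 0 at an unadjusted p under 0.05), with a median log2 fold of 0.37. After the GC and length trend was removed, 0 of the assembly factors were called. With the median of all genes subtracted, 1 of them, Coa5, was called lower (-0.48, q = 0.040), where the authors' deposited table has a log2 fold of -0.28 (q = 0.31). Those that rose include Pet100, a complex IV factor (log2 fold 0.95, SE 0.18), Uqcc3, a complex III factor (0.85, SE 0.18), and the copper carrier Cox17 (0.82, SE 0.17), whose row is joined with Popdc2. Of 7 tested partners that the rule leaves out, 3 rose and 0 fell: Atpif1, the ATP synthase inhibitor, with 725 FPKM in plus_Dox and 395 FPKM in minus_Dox (log2 fold 0.87, SE 0.16), Minos1 (0.77, SE 0.22) and Cyc1, cytochrome c1 of complex III (0.59, SE 0.16). Usmg5, a small ATP synthase subunit singled out after its value was seen, had 579 FPKM in plus_Dox and 587 FPKM in minus_Dox in the authors' deposited table (q = 1.00).

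Of 14 tested transcriptional regulators of respiratory genes, 0 were called in the authors' deposited table (at an unadjusted p under 0.05, 2 higher and 1 lower), with a median log2 fold of 0.05. So short a list holds few calls at the shares of all tested rows, 8.98% higher and 3.22% lower. With the median of all genes subtracted 1 of them, Yy1, was called lower. The authors' deposited table lists it at 30.9 FPKM in plus_Dox and 42.6 FPKM in minus_Dox (log2 fold -0.46, SE 0.18, q = 0.073). Nrf1 had 39.5 FPKM in plus_Dox and 32.1 FPKM in minus_Dox (q = 0.64), Gabpa 17.4 FPKM in plus_Dox and 20.3 FPKM in minus_Dox (q = 0.9) and Tfam, which packages mitochondrial DNA, 83.3 FPKM in plus_Dox and 79.4 FPKM in minus_Dox (q = 0.97), each in the authors' deposited table and named for the motifs or for mitochondrial DNA.

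Of 13 tested coenzyme Q synthesis genes, 1 rose (Coq7, log2 fold 0.65, SE 0.17) and 0 fell in the authors' deposited table, with a median of 0.39. That share lies near the 8.98% of all tested rows called higher (3.22% were called lower). Of 24 tested import genes, 9 rose and 0 fell, with a median of 0.51, led by Timm13 (0.93, SE 0.16), Timm17b (0.92, SE 0.25) and Tomm6, in a row joined with Prickle4 (0.83, SE 0.21). Once the GC and length trend was removed, 1 import gene (Timm17a) and 0 coenzyme Q genes were called higher. A further list holds carriers, routes of electron entry and some other mitochondrial proteins, such as Ckmt1. Of its 15 tested genes 3 rose, namely Etfb (0.81, SE 0.17), Ckmt1 (0.70, SE 0.25) and Slc25a4 (0.61, SE 0.16). With the trend removed, 0 of them were called higher. From that list 1 fell: Gpd2, the mitochondrial glycerol phosphate dehydrogenase, had 12.0 FPKM in plus_Dox and 18.6 FPKM in minus_Dox in the authors' deposited table (log2 fold -0.63 with SE 0.17, q = 0.0036). With the trend removed its value was -0.51 (q = 0.082), not called. The subunits encoded by mitochondrial DNA could not be set beside the nuclear ones. They occupy 4 rows, all marked as too high in depth, of which mt-Cytb is listed at 2206 FPKM in plus_Dox and at 0 in minus_Dox and the other 3 at 0 in both groups in the authors' deposited table.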

How the data were processed

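Polyadenylated RNA was sequenced from 6 libraries, 3 plus_Dox and 3 minus_Dox, grouped by their titles. Named without a role in the submitters' processing notes are mm9, Cuffdiff, Cufflinks 2.0.2, TopHat2 2.0.8, Bowtie and Picard. The sources used here do not give the gene annotation. Per the file headers, the deposited table holds FPKM values per gene, 1 for each group over its 3 libraries, computed by the authors. Beside them stand the deposited log2 fold and test statistic, scores with a placeholder where a group is at 0, and the authors' own p-value and q-value. There are 0 columns of single libraries, so no model was fitted to libraries and the authors' test was used at q under 0.05. The self-computed SE is the size of the log2 fold divided by that of the statistic, and intervals are at 95% on a normal scale. Locus starts count from 0 in the file and are given here from 1.

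The members and all gene lists were chosen with earlier results of these data known. Full statistics were given for members that fell, for up to 4 largest rises in each complex at 1 FPKM or more, for the 2 most abundant members of each complex and for members without a test. For each list, up to 3 calls were named. Other members were described freely, and 1 member, kept in all counts, is not reported here on its own. Of the list genes, some were found under an older symbol.

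For rescaling, the median over tested rows reaching 1 FPKM was subtracted. For trend removal, cubic splines with 6 knots each described the log2 fold by ordinary least squares from the GC content and log2 length of the longest basic protein-coding transcript in GENCODE M21, fitted at 1 FPKM or more. The residual over the SE gave a normal p-value, adjusted by Benjamini-Hochberg over the 16654 of 18114 tested rows (91.9%) for which both were known, 1366 by way of older symbols. This script was tested on simulated data. Python 3.11.15 with pandas 2.3.3, scipy 1.17.1 and scikit-learn 1.9.0 was used. Alternatives were q thresholds, a minimum fold and level, pseudocounts, joined rows left out, membership choices and the form of the trend.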

Additional observations from a re-analysis of the deposited data

How the results depend on the processing

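The count of 51 members higher became 30 at q under 0.01, 5 at 2-fold or more, 24 with the median of all genes subtracted, 5 with the GC and length trend removed, 12 with the GC trend alone and 4 with the length trend alone removed. In the same order complex I had 15, 3, 10, 1, 5 and 2 higher (24 as deposited), complex III 3, 2, 3, 1, 2 and 1 (5 as deposited), complex IV 6, 0, 5, 2, 4 and 0 (10 as deposited), complex V 5, 0, 5, 1, 1 and 1 (8 as deposited), and complex II 0 under each (1 as deposited). A q threshold of 0.1, minimum levels of 1 and 5 FPKM, joined rows left out and the membership choices moved these counts by less than 1.5 times, and the count lower was 0 wherever computed. Of all rows, 8.98% were higher as deposited, 3.4% with the median subtracted and 1.24% with the GC and length trend removed. For the other settings of these counts the share of all rows was not computed. The median log2 fold of the members, 0.51, was 0.31 with the median subtracted and 0.10 with the trend removed. The 5 calls after trend removal became 3 with transcripts of median length, an alternative added after the data were seen. For the other lists, the median subtraction and the trend removal were both added after the data were seen. In this order they left 4 and 0 of the 8 assembly factors and 1 and 0 of the 3 partners outside the rule higher. Of the 1 coenzyme Q gene they left 0 and 0 higher, of the 9 import genes 3 and 1, and of the 3 genes in the carrier list 1 and 0. Lower calls in these lists were 1 and 0 among assembly factors (Coa5), 1 and 0 among transcriptional regulators (Yy1) and 1 and 0 in the carrier list (Gpd2).

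Signs turned under trend removal for the medians of complex II (-0.012) and complex III (-0.038), and, among the called members given with full statistics, for Sdhb (-0.127), Uqcr10 (-0.019), Uqcrc1 (-0.098), Uqcrh (-0.090) and Atp5g2 (-0.289). With the GC trend alone they did for Uqcrc1 (-0.029) and Atp5g2 (-0.037), and with the length trend alone for Ndufa4 (-0.112), Sdhb (-0.0036), Uqcrh (-0.141) and Atp5g2 (-0.097). With 3 knots the values were -0.136 for Sdhb, -0.093 for Uqcrc1, -0.085 for Uqcrh and -0.277 for Atp5g2. With the trend fitted at 5 FPKM they were -0.139 for Sdhb, -0.111 for Uqcrc1, -0.019 for Uqcrh and -0.261 for Atp5g2, and with transcripts of median length -0.042 for Sdhb, -0.063 for Uqcrc1 and -0.308 for Atp5g2. Sdhd, not called as deposited, lay at -0.084 with the trend removed, -0.179 with length alone, -0.110 with 3 knots and -0.098 with the fit at 5 FPKM, and Cox7c, also not called, at -0.089 with length alone. In all, 12 of the 49 called members with known transcripts lay below 0 after trend removal. The cause of each turn was not tested.

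No paired analysis was possible because the table holds no single libraries, and leaving out a replicate was not run for the same reason. The spread between libraries enters only through the authors' test, and the sequencing depth is unknown, so no counting interval is given. How that test estimated the spread of a single gene cannot be seen here.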
